A study of Mus musculus with 125 samples.

Results

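Chromatin accessibility was followed at a cluster of immunity-related GTPase genes on mouse chromosome 18, which holds Iigp1, Gm4951, Gm4841 and F830016B08Rik. The cluster was taken as every consensus peak on chromosome 18 with its centre between 60200000 and 60400000 (GRCm38), which gave 44 of 256400 consensus peaks. The window had been noticed because its peaks were far more accessible in leukaemia cells grown with natural killer (NK) cells than in leukaemia cells grown alone. The members were thus chosen by their values in that contrast, which are given here as a description without a test. The change between the NK time points, the difference between cell lines without NK cells and the base sequence were not used in that choice. The time points and the lines alone share libraries with it, however. Likeness to other loci was computed over the groups of all arms, so it includes the step from alone to NK cells that made the choice.

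Immunity-related GTPases are proteins of cell-autonomous immunity. Interferon-γ (IFN-γ), which activated NK cells secrete, binds a receptor on the cell surface that signals to the nucleus. Interferon-induced genes often carry a gamma-activated site (GAS) or an interferon-stimulated response element (ISRE) in the DNA near their start. In mouse cells IFN-γ induces these GTPases strongly. Iigp1 (Irga6) is an effector GTPase that loads onto the vacuoles of intracellular parasites such as Toxoplasma and disrupts them, and regulatory GTPases of the Irgm type keep it inactive on the cell's own membranes. Gm4951, Gm4841 and F830016B08Rik are its less studied neighbours in the same family.

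ATAC sequencing measures how often the Tn5 transposase cuts a stretch of DNA, and a level here is a peak's count per 1000000 counts of effective library size (CPM). The cells were B-ALL lines, mouse B cell acute lymphoblastic leukaemia driven by the BCR/ABLp185 oncogene on a C57BL/6 background, barcoded and sorted for GFP. Lines A and B came from 1 parental line and lines C and D from another, so that each pair stands for 1 leukaemia. B-ALL cells were cultured alone and sampled at time point 1 (TP1), or cultured with IL-2-activated NK cells and sampled at TP1 and TP2, all cultures with recombinant human IL-2. In the paper, tumour cells sorted at the first harvest were put back into co-culture with fresh NK cells, and most clones were eliminated. Cells at TP2 were thus re-challenged and selected, and not the same population as at TP1. The labels give day 4 for TP1 and day 10 for TP2, but days 6 and 16 in experiment 9.7, and no B-ALL alone sample matched TP2 in time. The paper's text gives day 14 for TP2, and the days of the labels are used here. Experiments 9.5, 9.6 and 9.7 held all 4 lines, 9.5.1 held only line C and 9.6.1 only line D, which gave 14 combinations of line and experiment (6 for lines A and B, written A/B, and 8 for C/D). Of 42 groups, 41 had 3 libraries and 1 had 2. The labels call them replicates without naming separate cultures, and the paper describes 3 individual wells per condition as biological replicates. Wells of 1 line come from 1 leukaemia, so p-values measure the spread between these samples.

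The 125 libraries held 3083547 to 13580746 counts in peaks. In 2 groups of line C 2 libraries differed by less than sampling noise allows. Their mean stood for 1 sample, which left 123 samples. Peaks near all 12 B cell markers were present, with medians of summed CPM between 635 and 748 over pairs and arms, and none of the 12 was called changed in a comparison of arms. Their median log2 fold change at TP1 was -0.31 in A/B (-0.02 over all peaks) and 0.03 in C/D (-0.01). In A/B of experiment 9.5 the sums were 920 to 1046 alone and 666 to 741 at TP1. In 9.6 they were 576 to 716 and 517 to 575, and in 9.7 646 to 1003 and 518 to 754. In C/D the TP1 sums lay wholly below alone in 9.5.1 and wholly above in 9.6.1. Of 18 NK cell markers 12 had a peak, and their medians of summed CPM were 74.1 to 83.9 in A/B and 74.9 to 75.9 in C/D over the 3 arms. In A/B of 9.5 these sums were 62.1 to 75.8 alone and 77.7 to 96.5 at TP1. In 9.6 they were 70.3 to 82.8 and 83.2 to 102, and in 9.7 72.6 to 87.6 and 62.5 to 84.3. In C/D the alone and TP1 ranges overlapped in each experiment. Ncr1, Klrk1 and Ifng, which help define NK cells, had no peak within 3 kb of the transcription start site (TSS). Medians over all lines rose from alone to TP1 at Gzma (0.726 to 1.18 CPM), Gzmb (3.49 to 4.87), Il2rb (9.73 to 11.3) and Klrd1 (6.96 to 8.42). They also rose at Prf1 (3.5 to 4.06), Nkg7 (6.1 to 6.92) and Fasl (1.33 to 1.81), and slightly at Cd7 (1.65 to 1.71) and Klrc1 (1.36 to 1.37). At the rest of the 12 with a peak, Klrb1c (9.47 to 9.02), Eomes (18 to 17.9) and Tbx21 (10.4 to 9.23), they did not rise. Of 9 tested NK markers 0 were called higher with NK cells. Their median log2 fold change at TP1 was 0.22 in A/B (-0.02 over all peaks) and 0.04 in C/D (-0.01). Klrd1 was called lower at TP2 than at TP1 in A/B (-0.60). Bulk libraries cannot tell a larger share of cells with an open site from a more open site in each cell.

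The members lie in order along the chromosome. Gm4951 spans 60212080 to 60247820 on the plus strand, Gm4841 spans 60268305 to 60273272 on the minus strand, F830016B08Rik spans 60293380 to 60303016 on the plus strand, and Iigp1 spans 60376027 to 60392634 on the plus strand. Of the 44 peaks, 22 lie in introns, 19 between genes and 3 in exons, with widths of 181 to 5193 bp. Each gene had a broad peak at its start. The Iigp1 peak (60373256 to 60377106) covers the 5′ starts of Iigp1 and held 18983 counts over all libraries, the most in the window. The Iigp1 intronic peak (60380311 to 60383399) covers a start of shorter transcripts inside the gene. The Gm4951 peak (60210405 to 60214646), the Gm4841 peak (60271523 to 60274572) and the F830016B08Rik peak (60292473 to 60296301) cover the starts of their genes, and the annotation places their centres in introns.

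The 4 genes are paralogues. Coding sequences of Iigp1 and Gm4951 were 88% identical, those of Gm4841 and F830016B08Rik 78.2%, and the other pairs 66.8% to 69.5%. Reads from copied stretches can be placed at the wrong copy, and the treatment of multiply mapped pairs is not given in the sources used. Of the 50-base words in the Iigp1 intronic peak 19.9% occurred elsewhere in the genome, and 18.9% elsewhere in the window. The shares were 14.2% for the Gm4951 peak, 11.3% for the Gm4841 peak, 10.9% for the Iigp1 peak and 8.28% for the F830016B08Rik peak. A peak between F830016B08Rik and Iigp1 (60352754 to 60356698, in an intron of AC132320.1) held 0% repeated words, and its gain with NK cells, given below, was within the range of the others.

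The starts of the 4 genes share a sequence feature that the choice of members did not use. From 250 bases before to 50 bases after each TSS, both strands were searched for the GAS letters TTCNNNGAA and the ISRE core letters GAAANNGAA, and no match of one overlapped a match of the other. Gm4951 held 2 GAS and 2 ISRE core matches, and Iigp1, Gm4841 and F830016B08Rik each held 1 GAS and 2 ISRE core matches. Among 21911 protein-coding TSS windows of that length, 8.37% held a GAS match and 8.48% an ISRE core match. In all 4 members a reverse ISRE core match began 12 bases before a forward GAS match. This spacing was looked at after the matches were seen, and it occurred in 5 of the 21911 windows (0.0228%), those of the 4 members and of Zbp1, which encodes an interferon-induced sensor of nucleic acids. Since the members are paralogues, their windows are not independent. Over its whole width the Iigp1 peak held 6 ISRE core matches, and 0.679% of tested peaks of like length held as many. The Gm4841 peak held 5 (1.25% held as many), and the Gm4951, F830016B08Rik and Iigp1 intronic peaks held 3 each (17.7%, 15% and 10.4%). A match of letters is no evidence of binding.

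In B-ALL cells alone the window was almost without called peaks. No broad peak was called there in 17 of 18 alone libraries of A/B and in 17 of 23 of C/D, and no alone library had more than 3. With NK cells the median was 14 called peaks at TP1 and 10.5 at TP2 in A/B, and 12 at both time points in C/D. The DNA under called peaks had a median of 0 bp alone in both pairs, 14431 bp at TP1 and 10285 bp at TP2 in A/B, and 12348 bp and 10150 bp in C/D. The Iigp1 peak, the Gm4951 peak and a peak in the Gm4951 intron (60238412 to 60241140) were called in 42 of 42 libraries at TP1 and 42 of 42 at TP2. The Gm4841 and F830016B08Rik peaks were called in 42 of 42 at TP1 and 39 of 42 at TP2, and neither in any alone library. At the other end, 12 of the 44 peaks were called in no TP1 library.

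**Figure D1:**
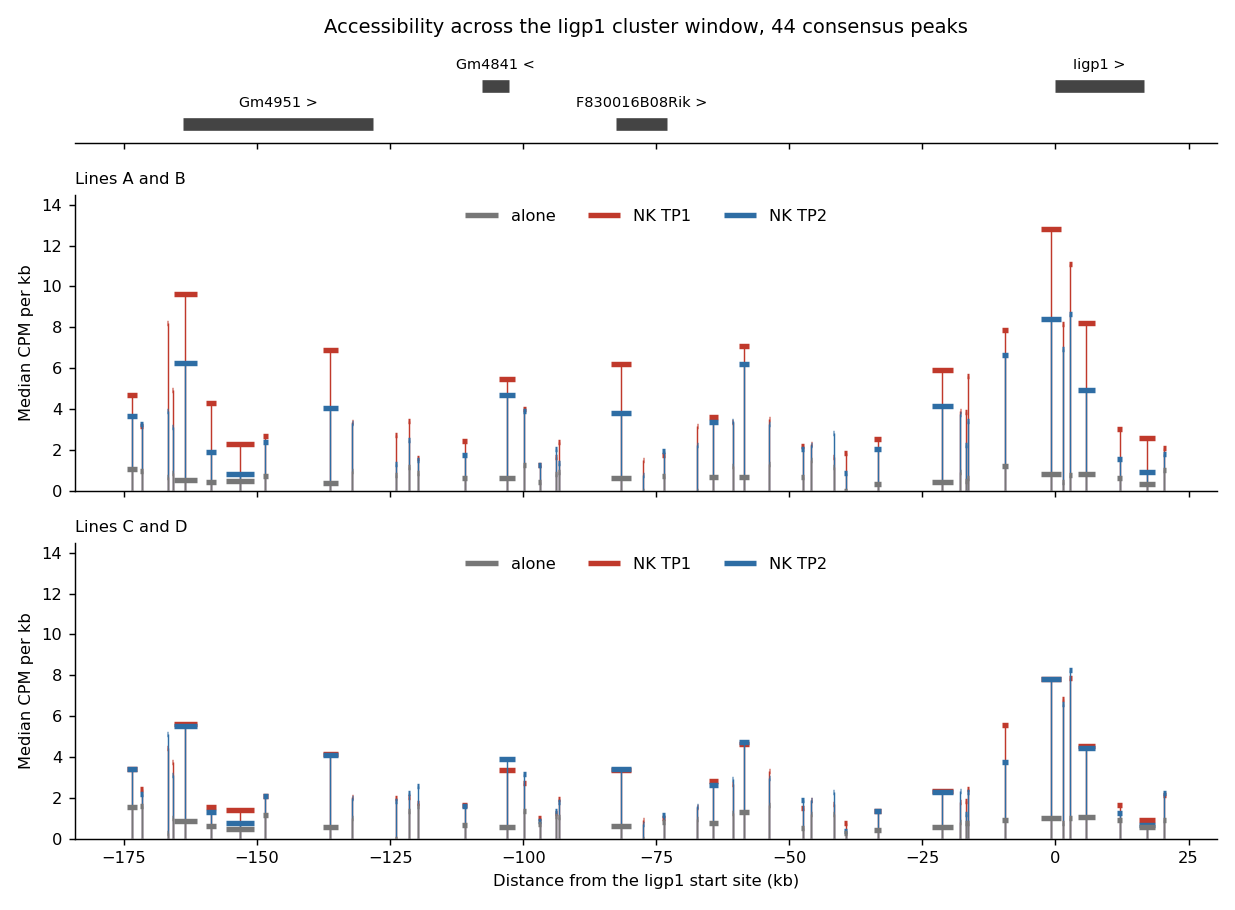
Median CPM per kb of each of the 44 window peaks (bar width is peak width) against distance from the Iigp1 start site in kb, for B-ALL alone, NK TP1 and NK TP2, with the 4 genes and their direction above. Signal with NK cells is spread along the window and highest around the Iigp1 start, and the TP1 and TP2 bars lie closer together in C/D than in A/B.

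A peak entered the tests of a pair if all libraries of 1 or more groups had a broad peak called there and its counts passed a low-count filter. In A/B 15 window peaks passed and in C/D 13, all 13 among the 15, and together they held 82.9% of the window's counts. The other 29 were narrower, with a median width of 369 bp against at least 1020 bp for those tested. All tested peaks passed through the NK groups, where they are high, so their gains carry no count as support.

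The Iigp1 peak led the named peaks in level per length at TP1, with medians of 12.8 (A/B) and 7.84 (C/D) CPM per kb. In A/B its CPM had a lowest, median and highest value of 1.13, 3.15 and 6.23 alone, 28.7, 49.2 and 67.3 at TP1, and 18, 32.3 and 50.4 at TP2. In C/D the values were 1.99, 3.95 and 7.06 alone, 21.4, 30.2 and 49.3 at TP1, and 10.3, 30.1 and 43.7 at TP2. The alone range did not overlap either NK range in either pair, and the NK ranges overlapped each other. The fitted log2 fold change from alone to TP1 was 3.78 ± 0.12 (SE) in A/B, 13.77-fold, and 3.03 ± 0.12 in C/D, 8.15-fold.

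The Iigp1 intronic peak, downstream inside the gene, had medians of 8.19 and 4.53 CPM per kb at TP1. Its median in A/B went from 2.57 CPM alone (1.26 to 5.17) to 25.3 at TP1 (13.5 to 52.5) and 15.2 at TP2 (7.4 to 29). In C/D it went from 3.26 (1.4 to 5.64) to 14 (5.63 to 22.9) and 13.7 (5.01 to 22). In C/D the lowest libraries of both NK arms reached into the alone range, which did not happen in A/B. Within each experiment every TP1 library stood above every alone library of the same pair.

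The Gm4951 peak, at the gene closest to Iigp1 in coding sequence, had medians of 9.64 and 5.64 CPM per kb at TP1. Its median in A/B was 2.29 CPM alone (0.49 to 5.15), 40.9 at TP1 (26.5 to 54.8) and 26.5 at TP2 (12.5 to 44.6). In C/D it was 3.67 (1.59 to 6.65), 23.9 (17.4 to 41.9) and 23.5 (8.88 to 42). No alone library overlapped an NK library in either pair. The fitted gain to TP1 was 15.95-fold in A/B, above that of the Iigp1 peak, and 6.93-fold in C/D, below it.

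The Gm4841 and F830016B08Rik peaks, the other similar couple, had medians at TP1 of 5.48 and 6.18 CPM per kb for A/B, against 3.35 and 3.38 for C/D. The Gm4841 peak had medians of 1.9 CPM alone (0.28 to 4.23), 16.7 at TP1 (13.4 to 22.8) and 14.4 at TP2 (6.75 to 26.3) in A/B. In C/D its medians were 1.8 (0.446 to 4.48), 10.2 (6.74 to 17.9) and 11.9 (2.24 to 17.9). The F830016B08Rik peak had medians of 2.36 (1.01 to 5.17), 23.6 (16.4 to 30.6) and 14.6 (7.61 to 33) in A/B. In C/D they were 2.44 (0.936 to 5.13), 12.9 (6.75 to 18.3) and 13.1 (3.68 to 30.6). At TP2 in C/D the lowest libraries of both peaks reached the alone range, and at TP1 neither did.

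**Figure D2:**
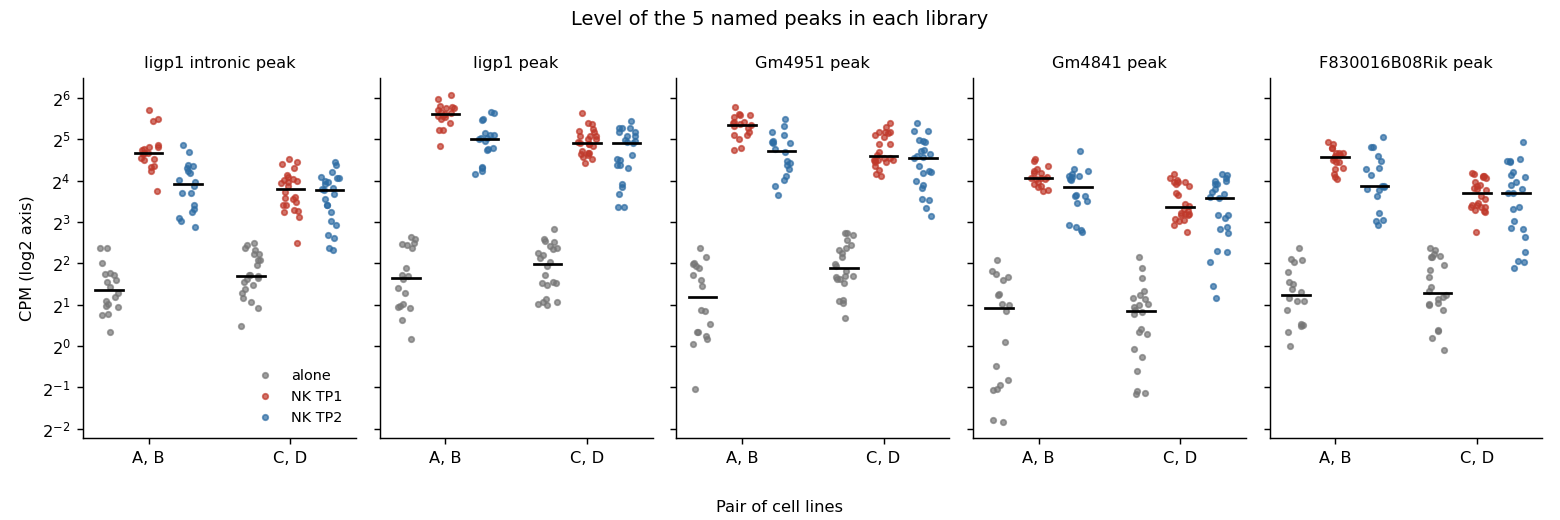
CPM (log2 axis) of the 5 named peaks in each of 123 samples, by pair of lines and arm, with the median as a black bar. NK TP1 samples stood above the alone samples at each peak except for 1 low C/D sample at the Iigp1 intronic peak, and NK TP2 samples spread most widely in C/D.

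Over the tested window peaks the log2 fold change from alone to TP1 ran from 1.89 to 4.05 in A/B, with a median of 3.15, and from 1.28 to 3.03 in C/D, with a median of 2.06. At TP2 it ran from 1.18 to 3.39 with a median of 2.48 in A/B, and from 0.96 to 2.74 with a median of 1.87 in C/D. Across all tested peaks of the genome the median change was -0.02 and -0.01 at TP1. All 15 window peaks in A/B and all 13 in C/D were past the fold used for calls, where 6.78% and 1.71% of all tested peaks were at TP1 and 5.03% and 1.79% at TP2 (5.02% for calls by adjusted p and fold in A/B at TP2). These shares are printed as background to a choice made on this contrast, and nothing is read from them. The largest gain, chosen after its values were seen, was at the Gm4951 intronic peak noted above, with 4.05 ± 0.14 (A/B) and 2.99 ± 0.16 (C/D). The peak without repeated words gained 3.64 and 1.99. The summed window went from a median of 38.1 to 312 and 215 CPM in A/B and from 47 to 187 and 178 in C/D. In 14 of 14 combinations of line and experiment the sum was higher at both NK time points than alone.

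Ordered by the mean over experiments, the Iigp1 peak was highest in line A at TP1 (53.7 ± 6.81 CPM, SD, n = 3 experiments), followed by B at TP1 (44 ± 8.45), A at TP2 (35 ± 13.1) and D at TP1 (33.2 ± 3.46, n = 4). Next came C at TP1 and B at TP2 (29.4 each), D at TP2 (29.2 ± 9.72) and C at TP2 (25 ± 11). The 4 alone means closed the order, D at 4.48, A at 3.53, B at 3.46 and C at 3.4. Between neighbours in this order within the NK groups, only A and B at TP1 differed by more than the SDs of both, and from B at TP1 down each group lay within an SD of the next. The step from C at TP2 to D alone was far wider than either SD, and the 4 alone groups lay within their SDs of each other. The Gm4951 peak and the summed window had the same break between the NK and alone groups, with A at TP1 first in both.

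Whether the window was less open in the cells sampled at TP2 than in those at TP1 was tested with edgeR's quasi-likelihood test. Benjamini-Hochberg adjustment was over all tested peaks. A peak was called at an adjusted p of at most 0.05 and an absolute log2 fold change of at least 0.58. In A/B all 15 window peaks were lower at TP2, with a median log2 fold change of -0.61 against 0.01 over all peaks, and 8 of 15 were called lower, where 1.48% of the 48997 tested peaks were called lower and 0.118% higher. Of these 15 peaks 4 entered the test through TP1 groups alone, since no TP2 group had them called in all its libraries, and 3 of the 8 calls were among those 4. A peak let in by the arm where it is high is likelier to be lower in the other, so the count was repeated over peaks called in a whole group of each NK arm, a choice made after seeing the data. It was 5 of 11, where 0.633% of 39641 such peaks were called lower. The Iigp1 peak changed by -0.61 ± 0.09 (SE, adjusted p = 3.0e-06) and its mean was lower at TP2 in 6 of 6 combinations, by -0.11 to -1.13. The Iigp1 intronic peak changed by -0.81 ± 0.10 (adjusted p = 3.6e-08), also in 6 of 6, and the Gm4951 peak by -0.63 ± 0.10 (adjusted p = 1.1e-05), in 6 of 6.

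The largest losses were at the 3 called peaks that had entered through TP1 groups alone, away from the starts of the 4 genes, and they are given as a description. The peak over the 3′ end of Iigp1 (60391791 to 60394785) had a log2 fold change of -1.38 ± 0.16. In the Gm4951 intron a peak at 60220274 to 60225466 had -1.28 ± 0.16 and one at 60216459 to 60218302 had -1.10 ± 0.14. The latter had a broad peak called in 6 libraries at TP1 and 0 at TP2. The Gm4841 peak (-0.33 ± 0.12, adjusted p = 0.042) and the F830016B08Rik peak (-0.48 ± 0.11, adjusted p = 0.002) passed the adjusted p but stayed under the fold. Without replicate 1 the count of called peaks was 5, of 16 tested, and without experiment 9.7 it was 4 of 15. Of the 5 calls over peaks of both NK arms, that of the Iigp1 intronic peak alone was kept in either case, and without replicate 3 4 of 5 were kept. The Iigp1 peak, close to the fold threshold, had -0.55 without replicate 1 and -0.52 without experiment 9.7. The Gm4951 peak lost its call without replicate 1 (-0.54), without replicate 3 (-0.56) and without experiment 9.7 (-0.48).

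In C/D all 13 peaks were lower at TP2, with a median of -0.21 against 0.02 over all peaks, and 0 of 13 were called by edgeR, where 0.404% of the 55461 tested peaks were called lower and 0.225% higher. At an unadjusted p under 0.05 the count was 4 of 13, and DESeq2 also called 0. The Iigp1 peak changed by -0.28 ± 0.09 (adjusted p = 0.017) and the Gm4951 peak by -0.33 ± 0.11 (adjusted p = 0.021), both under the fold. The Iigp1 intronic peak (-0.21 ± 0.11, adjusted p = 0.15), the Gm4841 peak (-0.21 ± 0.14, 0.26) and the F830016B08Rik peak (-0.09 ± 0.14, 0.66) did not pass the adjusted p.

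**Figure D3:**
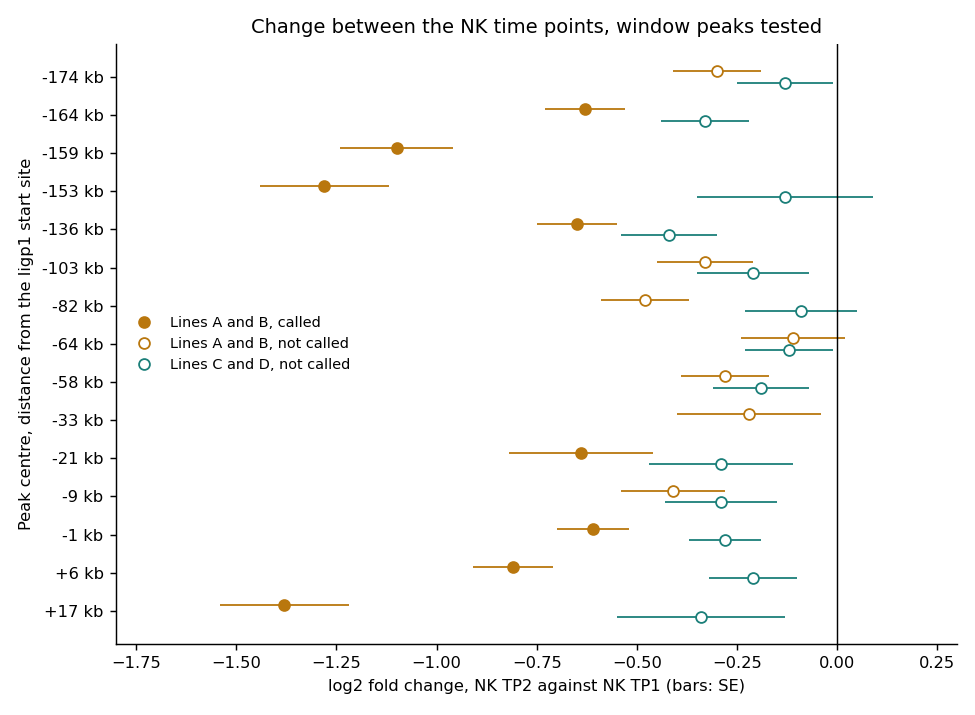
Log2 fold change from NK TP1 to NK TP2 (x axis, bars are SE) of the 15 tested window peaks, ordered along the chromosome by distance from the Iigp1 start site, with lines A and B in orange and C and D in green. All points lie left of 0, and 8 filled A/B points pass the call, the farthest at -1.38.

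A/B minus C/D was itself a contrast in 1 fit over all samples, on the 13 window peaks tested in both. It was called at 3 of 13, all with a larger loss in A/B, where 0.544% of 45572 peaks were called lower and 0.123% higher. They were the peak at 60220274 (-1.17 ± 0.29, edgeR adjusted p = 0.011), the Iigp1 intronic peak (-0.62 ± 0.16, adjusted p = 0.015) and the peak over the 3′ end of Iigp1 (-1.06 ± 0.28, adjusted p = 0.019). At the Iigp1 peak (-0.34 ± 0.14, adjusted p = 0.22) and the Gm4951 peak (-0.32 ± 0.16, adjusted p = 0.39) no difference was called. The first and the last of these entered in A/B through TP1 groups alone, and over peaks called in a whole group of each NK arm the count was 1 of 11, the Iigp1 intronic peak, where 0.326% of 37157 peaks were called lower. The count was 0 without replicate 1, 2 without replicate 2 and 0 without replicate 3. Without the demand for a called broad peak 3 were called, of which 1 was among those named here, and the Iigp1 intronic peak was not called (-0.55). The order of the pairs was not the same in each experiment, by the separate fits described below. In 9.7 the 3 called peaks, in the order named, had -1.66, -0.89 and -2.12 in A/B and a larger loss in C/D (-2.49, -1.15 and -2.34). In 9.5 they fell in A/B (-0.94, -0.72 and -1.09) and rose in C/D (1.49, 0.78 and 1.21). The difference between the pairs was not tested by experiment.

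The mean change of C/D covered experiments that moved in opposite directions. This was examined after the pooled result was seen, with the arm effects of each experiment fitted separately inside each pair. In experiment 9.5 all 13 window peaks of C/D were higher at TP2, and 8 of 13 were called higher, where 8.91% of all tested peaks were called higher and 1.04% lower. In experiment 9.7, with the later sampling days, 13 of 13 were called lower with a median of -1.48, where 11.6% of all peaks were called lower and 7.05% higher. In 9.6 (2.66% lower, 8.61% higher over all peaks), 9.5.1 (0.261%, 0.106%) and 9.6.1 (0.018%, 0.0198%) 0 of 13 were called, with 3, 0 and 2 at an unadjusted p under 0.05. Fitted on experiment 9.6.1 by itself, 1 of 13 was called lower. Without experiment 9.7 the C/D change at the Iigp1 intronic, Gm4841 and F830016B08Rik peaks turned from negative to 0.08, 0.15 and 0.34.

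The Iigp1 peak of C/D had a lowest, median and highest CPM of 21.4, 27.4 and 35.8 at TP1 and 30.5, 38.6 and 43.7 at TP2 in experiment 9.5. In experiment 9.7 it had 24.6, 31.7 and 34 at TP1 and 10.3, 13.6 and 19.9 at TP2. The 9.7 ranges did not overlap, while those of 9.5 did. The F830016B08Rik peak went from 6.75, 9.98 and 13.8 to 15.5, 22.2 and 30.6 in 9.5 and from 10.3, 16.1 and 18.3 to 3.68, 4.49 and 7.08 in 9.7, with no overlap in either experiment. Its fitted change was 1.09 ± 0.16 in 9.5 (edgeR adjusted p = 3.4e-06) and -1.56 ± 0.16 in 9.7 (adjusted p = 1.5e-11). In 9.7 at TP2 its range overlapped that of the alone samples, 1.28 to 5.13. The same overlap was seen at the Gm4841 peak and at none of the other named peaks.

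In A/B 11 of 15 peaks were lower at TP2 in experiment 9.5, 12 of 15 in 9.6 and 15 of 15 in 9.7. In experiment 9.5 4 of 15 peaks were called lower (0.196% of all tested peaks lower, 0.271% higher), in 9.6 5 of 15 (2.61% and 3.7%) and in 9.7 13 of 15 (4.58% and 1.04%), where the median was -0.98. The Iigp1 intronic peak was called in each experiment (-0.72 ± 0.18, -0.78 ± 0.16 and -0.89 ± 0.17). The Gm4841 peak was close to 0 in 9.5 (-0.09 ± 0.17) and 9.6 (0.00 ± 0.16) and fell in 9.7 (-0.88 ± 0.16, edgeR adjusted p = 8.4e-05).

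The contrast of experiment 9.7 with the mean of 9.5 and 9.6 was called lower at 8 of 15 window peaks in A/B, where 1.28% of all tested peaks were called lower and 0.561% higher. With a trended loess offset in place of TMM the count was 3. In C/D it was called lower at 13 of 13, by -1.16 to -3.21, where 22.6% of all peaks were called lower and 12.1% higher, so that a large part of the genome differed between these experiments too. The contrast of 9.5 with 9.6 was called higher at 4 of 13 in C/D (the Iigp1 and Iigp1 intronic peaks and the Gm4951 intronic peaks starting at 60220274 and 60238412), where 0.0721% of all peaks were called higher and 0.00361% lower. In A/B it was called at 0 of 15 (2.6% lower, 2.88% higher over all peaks), with 0 at an unadjusted p under 0.05.

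Over peaks called in a whole group of each NK arm, the counts in A/B were 1 of 11 lower in 9.5 (0.116% of all such peaks), 2 of 11 in 9.6 (2.12%) and 9 of 11 in 9.7 (2.49%), and 6 of 11 for 9.7 against 9.5 and 9.6 (0.921%). For C/D they were 7 of 12 higher in 9.5 (5.52%) and 12 of 12 lower in 9.7 (7.45%), 12 of 12 lower for 9.7 against 9.5 and 9.6 (15.2%) and 4 of 12 higher for 9.5 against 9.6 (0.0873%).

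Other library values also changed between TP1 and TP2, in some experiments in the direction of the window and in others not. The share of a library's counts that fell outside the tested peaks had a median of 18.2% at TP1 and 25.1% at TP2 in C/D of experiment 9.5, 20.4% and 15.6% in 9.7, and 22.3% and 29.7% in 9.6. In C/D of 9.5.1 it was 22.2% and 22.5%, and in 9.6.1 23.2% and 18.6%. In A/B it was 21.6% and 21.4% in 9.5, 21.8% and 29.5% in 9.6, and 17.9% and 14.3% in 9.7. The summed NK marker peaks of C/D had medians of 71.9 CPM at TP1 and 89.9 at TP2 in 9.5. They had 74.4 and 72.5 in 9.5.1, 83.3 and 96.9 in 9.6, 75.7 and 65.7 in 9.6.1, and 77.9 and 66.9 in 9.7. In A/B they had 87.6 and 79.2 in 9.5, 86.7 and 90.7 in 9.6, and 72.4 and 60.6 in 9.7. The summed B cell marker peaks of C/D had 780 and 609 in 9.5, 540 and 524 in 9.6, and 623 and 875 in 9.7. In 9.5.1 they had 633 and 728, and in 9.6.1 657 and 708. Those of A/B had 718 and 818 in 9.5, 542 and 534 in 9.6, and 691 and 797 in 9.7. Their part in the change of the window was not tested. Experiment 9.7 also differs by its sampling days, and days and experiment cannot be told apart.

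**Figure D4:**
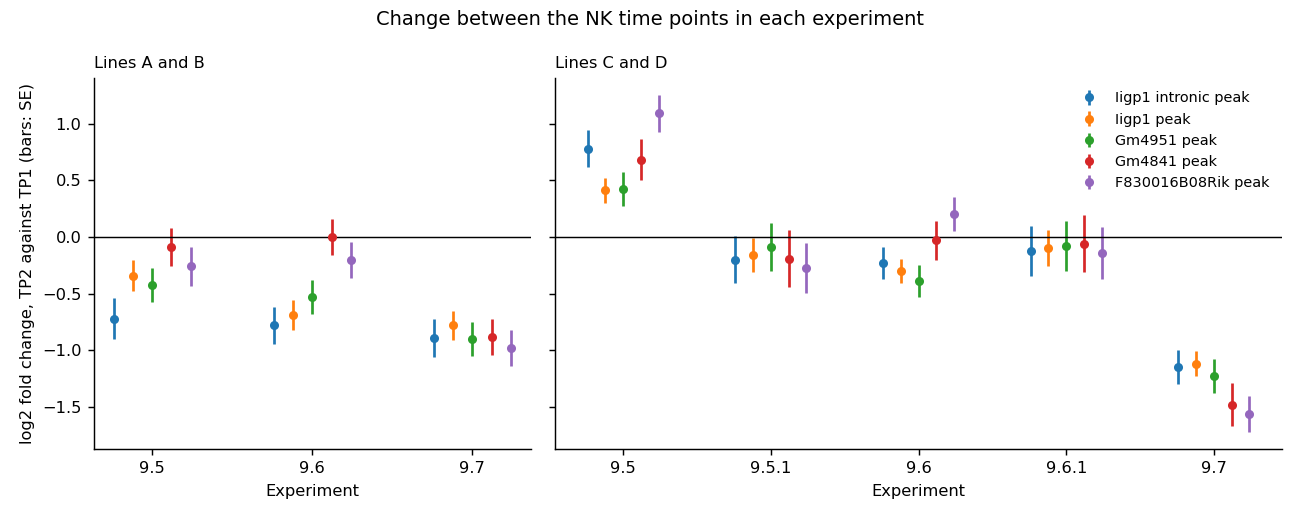
Log2 fold change from NK TP1 to NK TP2 (y axis, bars are SE) of the 5 named peaks in each experiment, lines A and B left and C and D right. C/D points lie above 0 in experiment 9.5 and below -1 in 9.7, while A/B points lie at or below 0 in each experiment.

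Without NK cells the 4 lines could hardly be compared at this locus. Peaks of the alone fit had to be called in every library of an alone group, and 0 of 44 window peaks met this among 49125 tested, of which 11.2% were called lower in A/B and 4.15% higher. When the peaks tested in any arm were fitted on the alone libraries instead, a setting chosen after seeing the data, 2 of 15 window peaks were called lower in A/B than in C/D, where 11.4% of 58886 peaks were. They were the Gm4951 peak (-0.68 ± 0.15, edgeR adjusted p = 9.1e-05) and a peak near F830016B08Rik (60316573 to 60318490, -0.72 ± 0.19, adjusted p = 9.4e-04). The share is near that of the genome. The Iigp1 peak (-0.16 ± 0.14, adjusted p = 0.32) and the F830016B08Rik peak (-0.17 ± 0.16, adjusted p = 0.4) did not pass. Between the sister lines A and B and between C and D 0 of 15 peaks were called under that setting. In the alone fit itself, 0.664% of peaks were called lower and 0.436% higher in A than in B, and 0.548% and 0.58% in C than in D.

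The flanks of the window held some peaks that rose. In the 200 kb on either side lay 55 consensus peaks, 11 of them tested, 2 before and 9 after. In A/B 3 of 11 were called higher at TP1, where 6.78% of all tested peaks were, a peak at BC023105 (60438338 to 60441463, 2.46), one near Gm6960 (60418543 to 60419772, 1.82), both after the window, and one near Gm23576 before it (60137492 to 60138605, 0.74). In C/D 1 of 11, the BC023105 peak, was called higher (1.06), where 1.71% of all tested peaks were. A peak at the start of Dctn4 (60525413 to 60526919), which encodes a dynactin subunit, changed by 0.19 and 0.04. Between TP2 and TP1 0 of 11 flanking peaks were called in either pair. Just inside the far edge, the last tested window peak, over the 3′ end of Iigp1, had gained 2.56 in A/B and 1.30 in C/D.

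Other genes of the pathway were examined at their starts. Of 25 listed IFN-γ-induced GTPase genes elsewhere in the genome 23 had a tested peak within 3 kb of the TSS in A/B, and 9 of 23 were called higher at TP1 and 0 lower, with a median log2 fold change of 0.39, where 6.78% of all tested peaks were called higher and the median was -0.02. In C/D 5 of 24 were called higher and 0 lower, with a median of 0.26, where 1.71% of all peaks were called higher and the median was -0.01. The guanylate-binding protein genes Gbp10 (2.26 ± 0.13 in A/B, 1.36 ± 0.09 in C/D) and Gbp6 (1.99 ± 0.10 and 1.67 ± 0.09), whose products coat parasite vacuoles as Iigp1 does, rose in both pairs, as did the GTPase gene Gm12185 (1.76 ± 0.09 and 1.39 ± 0.09). Gbp11 rose in A/B (1.18 ± 0.11) and had 0.57 in C/D, under the fold. The genes in the next sentences were picked after their values were seen. The effector GTPase genes Tgtp1 (0.90 and 0.81) and Tgtp2 (0.96 and 0.67) were also called in both pairs. The regulatory genes Irgm1 (0.20 and 0.19), Irgm2 (0.36 and 0.25) and Igtp (0.48 and 0.27), which restrain Iigp1 in the cell, were not called. At TP2 5 of 23 in A/B (5.02% of all peaks) and 6 of 24 for C/D (1.79%) were called higher. Between TP2 and TP1 Gbp10 was the one gene of the list called, lower in A/B (-0.71 ± 0.11, edgeR adjusted p = 4.9e-06), and 0 of 24 were called in C/D.

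Of 21 receptor and feedback genes of the IFN-γ pathway, all tested, 1 was called higher at TP1 in A/B, and for C/D 0 were called, against 6.78% and 1.71% of all tested peaks. It was Batf2, an interferon-induced transcription factor gene (1.29 ± 0.12 in A/B at TP1). It was also higher at TP2 in A/B (1.15) and in C/D (0.82). Of 9 genes whose products work with the GTPases in autophagy 0 were called in any comparison. Of the myeloid markers 1 of 6 tested, Mpeg1, was called higher in A/B at TP1 (0.73, where 6.78% of all peaks were), and of the T cell markers 1 of 2, Lat, was lower (-0.60, where 1.12% of all peaks were).

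Across the 42 group means, the log2(CPM + 0.5) of the other 12 window peaks tested in both pairs followed that of the Iigp1 intronic peak with Pearson's r of 0.82 to 0.97 (median 0.96), while the median over 45518 peaks outside was -0.01 and the 95th percentile 0.57. The most similar loci outside the window were peaks near Gbp10 (chromosome 5, 105259994 to 105264164, r = 0.964), Olfr753-ps1 (chromosome 17, 37184493 to 37185997, 0.960), Gm25826 (chromosome 18, 32692964 to 32695139, 0.957) and Gbp6 (chromosome 5, 105292257 to 105294792, 0.955). Next were Gm23260 (0.953), Gm32780 (0.951), Gm48739 (0.942), Nrxn3 (0.941), Hspa12a (0.941) and Gm27580 (0.940). Each name is that of the nearest TSS, which for Gm25826 was 71996 bp away. The groups share libraries, depth and the step from alone to NK cells, so these values describe likeness of pattern and carry no p. Ranked by Spearman's rho, 5 of the 10 were the same genes.

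Within a single arm the 5 named peaks also varied together from sample to sample. In A/B the median of the 10 pairwise correlations of log2 CPM was 0.69 alone (n = 18), 0.72 at TP1 (n = 18) and 0.86 at TP2 (n = 18). In C/D it was 0.64 alone (n = 22), 0.80 at TP1 (n = 24) and 0.95 at TP2 (n = 23), the arm in which the experiments moved apart. These samples share lines, experiments and depth, and the values are descriptions.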

How the data were processed

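The authors ran the nf-core ATAC-seq Nextflow pipeline: reads were aligned with STAR (version not given in the sources used here) to GRCm38, duplicates identified with Picard 2.27.4 and broad peaks called per library with MACS2 2.2.7.1. Peaks were merged into consensus peaks over all libraries, and the deposited values are raw read counts per consensus peak, counted by featureCounts with overlapping features allowed. The deposited peak lists give each library's broad peaks with a −log10 q-value, of which only the positions were used. The blacklist named in the methods is of a human build.

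The 125 libraries were compared by chi-square within groups (124 pairs, chi-square over degrees of freedom 0.827 to 7.52). In 2 pairs it was below 1 (0.827 and 0.852, against 1.9 to 3.67 for the other pairs of those groups), and these were averaged, which left 54 A/B samples and 69 C/D samples. CPM were computed from the counts on 1 TMM scale over peaks tested in both pairs. Tests used edgeR 4.0.16 (quasi-likelihood, TMM) in R 4.3.3, with a term for each combination of line and experiment plus arm, over all tested peaks, and calls at an adjusted p of 0.05 and a log2 fold change of 0.58. Alternatives were DESeq2 1.42.0, a loess offset, other filters, left-out replicates and single experiments or lines. On simulated data for the A/B comparison (48997 peaks), recovery was counted by the adjusted p of 0.05 alone, without the fold. By that count 97 of 100 peaks changed by 0.6 and 100 of 100 changed by 1 on the log2 scale were recovered. There were 8 false calls by the adjusted p. All simulated peaks had the same dispersion, and each change was the same in every experiment. Real changes differed between experiments, so these counts may be better than those for the real data. Recovery with the fold of 0.58 added was not tested.

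Peaks described in full were, for each member, the peak nearest to an annotated TSS and the peak with the most counts in or within 5 kb of the gene. Members, gene lists and tests were chosen with earlier results of these data known. Coding sequences, TSSs and motif matches came from GENCODE M21 and the GRCm38 assembly. No sequence of this chromosome is printed. Depth (3083547 to 13580746 counts) limits the narrow peaks, and counting error is only part of the spread between samples.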

Additional observations from a re-analysis of the deposited data

Results flagged for a closer look

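The change between TP2 and TP1 differed between the pairs at 3 window peaks by a test of the difference in 1 fit. The difference, A/B minus C/D, was -1.17 at the peak starting at 60220274, -0.62 at the Iigp1 intronic peak and -1.06 at the peak over the 3′ end of Iigp1. The first and the last entered in A/B through TP1 groups alone. In experiment 9.7 all 3 peaks fell further in C/D than in A/B, and in 9.5 they rose in C/D. The change between TP2 and TP1 also differed between experiments by a test of that difference. Experiment 9.7 stood below 9.5 and 9.6 at 8 of 15 window peaks in A/B (1.28% of all tested peaks) and at 13 of 13 in C/D (22.6%). Over peaks called in a whole group of each NK arm these counts were 6 of 11 (0.921%) and 12 of 12 (15.2%). Experiment 9.5 stood above 9.6 at 4 of 13 in C/D (0.0721%). Among 36 groups of combination means (5 named peaks and the summed window, 2 pairs, 3 arms) 0 had a combination that stood far from the others by Dixon's criterion, which chance alone flags in about 1 in 20 groups.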

How the results depend on the processing

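Over all comparison counts and medians, 99 alternative values stayed close, that is counts within a set ratio of the main count or medians within the spread. Beyond these limits 10 counts were lower, 7 higher and 6 medians or shares moved. Of the values of single named peaks 184 stayed, 8 gained a call, 12 lost it and 11 turned direction. For TP2 against TP1 in A/B (8 of 15) the count was 5 of 7 over peaks within 3 kb of a TSS, 4 in experiment 9.5 alone, 5 in 9.6 alone, 13 in 9.7 alone, 4 without experiment 9.7 and 5 of 11 over peaks called in a whole group of each NK arm. Leaving out a replicate gave 5 to 10. In C/D (0 of 13) it was 13 in experiment 9.7 alone and 1 in 9.6.1 alone, and 7 were called higher in 9.5 alone. The difference between the pairs (3 of 13) was called at 0 to 2 with a replicate left out and at 1 of 11 over peaks called in a whole group of each NK arm. For A/B against C/D alone (0 tested) it was 1 of 18 without the demand for a called broad peak, 1 of 2 without replicate 2 and 2 of 15 over peaks tested in any arm. The contrast of 9.7 with 9.5 and 9.6 in A/B (8) fell to 3 with a loess offset. The median log2 gain with NK cells moved in single experiments, at TP1 to 3.70 in A/B and 2.34 in C/D in 9.5, and at TP2 to 3.19 in A/B in 9.5 and to 3.39 and 0.88 in C/D in 9.5 and 9.7. Of the 10 most similar genes 5 were shared with Spearman's rho. Directions turned in C/D in experiment 9.5 alone, to 0.78 (Iigp1 intronic), 0.41 (Iigp1), 0.42 (Gm4951), 0.68 (Gm4841) and 1.10 (F830016B08Rik), at F830016B08Rik in 9.6 alone (0.19), and without 9.7 (0.08, 0.15 and 0.34 at Iigp1 intronic, Gm4841 and F830016B08Rik). Gm4841 was 0.00 in A/B in 9.6 alone, and its difference between the pairs ran from -0.34 to 0.09 with a replicate left out. The cause was not tested. Replicate numbers did not pair the samples (of 120 same-numbered pairs 37 had r over 0.1, median 0.029, range -0.469 to 0.459). With the replicate number as a block the counts were 8 of 15 in A/B and 0 of 13 in C/D, the Iigp1 peak changed by -0.62 and -0.31, and no call of a count or named peak changed. Paralogous stretches and low counts in the narrow peaks limit what single peaks can show.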
